A study of Oryza brachyantha and Oryza sativa Japonica Group and Oryza glaberrima with 38 samples.

Results

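In Asian cultivated rice (Oryza sativa, japonica), 2472 long domains of dimethylated lysine 9 of histone H3 (H3K9me2) were described. The domains came from the H3K9me2 peak list of plants at tillering, the stage at which a grass forms side shoots. Peaks on chromosomes 1 to 12 were joined over gaps of up to 1 kb, which gave 16826 joined domains, and those of 10 kb or more that shared at least 1 bp with both H3K9me2 lists of seedlings were kept (14.7% of the joined domains). The members were thus chosen by the called extent of tillering H3K9me2, and values of that list are given only as a description. Every joined domain of 10 kb or more met the seedling condition, so length alone decided membership. All coordinates are on the tigr6 assembly.

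The study profiled histone marks by chromatin immunoprecipitation and sequencing in 6 grass species, and its title asks how heterochromatin and its boundary with euchromatin evolved in Oryza. The O. sativa material was 2-week seedling shoot and 60-day aerial tissue at tillering, both from greenhouse plants and both holding many cell types. In seedlings, H3K9me2 was profiled with an Abcam antibody in 2 replicates, the first with an input control and the second with a total histone H3 control. Methylated lysine 27 (H3K27me, Millipore antibody, number of methyl groups not stated in the label) and acetylated lysine 56 (H3K56Ac, Active Motif antibody) were profiled in seedlings in 1 library each with their own inputs. At tillering, H3K9me2 and trimethylated lysine 4 (H3K4me3, Millipore antibody) had 1 library each and shared 1 input. The labels do not say how many plants a library held.

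In plants, H3K9me2 marks silent chromatin rich in transposons and repeats, where it and DNA methylation in CHG contexts maintain each other. Methylation of lysine 27 takes several forms with different places in the genome: the monomethyl form lies in constitutive heterochromatin, whereas the trimethyl form is deposited by Polycomb complexes on silenced genes. H3K4me3 lies at the start of transcribed genes, and H3K56Ac, an acetylation of the globular part of H3, is found near the start of active genes and on newly assembled nucleosomes. Both are called active marks here.

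The tillering H3K9me2 list held 24310 peaks over 21.0% of the chromosome length, and the seedling lists covered 16.7% in replicate 1 and 18.8% in replicate 2. H3K27me covered 24.4%, H3K56Ac 5.60% and H3K4me3 4.15%. The tillering H3K9me2 peaks were shallow, with a median fold enrichment over the control of 1.30, against 2.64 and 2.18 in the seedling replicates. All per-peak folds, pileups and q-values are the authors' own. Read depth is unknown, because the lists carry no read totals, and a share of 0 means only that no peak was called.

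The long domains together spanned 46.2 Mb, 12.4% of the chromosome length, and held 56.01% of all bp in the tillering H3K9me2 list. Their median length was 14.7 kb, with an interquartile range of 12.1 to 20.6 kb. By length, 1806 domains were 10 to 20 kb, 601 were 20 to 50 kb, 58 were 50 to 100 kb and 7 were 100 kb or more. Of all domains, 862 consisted of 1 peak, and the others joined several peaks across 3179 gaps with a median of 705 bp. The gaps made up 5.03% of the domain length.

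The longest domain was chr10:3181126-3338096, at 157 kb. It was followed by chr6:18271145-18413632 at 142 kb, chr5:9969461-10110291 at 141 kb and chr5:15263574-15404165, also at 141 kb. Of the 7 domains of 100 kb or more, 4 lay on chromosome 5, and chr5:9847792-9967553 (120 kb) was separated from chr5:9969461-10110291 by 1.91 kb. The pair was picked out after its values were seen. At the length limit, the shortest members were chr11:10027845-10037844, chr12:8762709-8772709 and chr5:15475233-15485234, all at 10 kb after rounding, with H3K27me over 72.2%, 88.1% and 87.2% of their length. The longest joined domains left out were chr12:13454148-13464144, chr11:6242381-6252375 and chr5:24444111-24454099. They had lengths of 9.997, 9.995 and 9.989 kb, and H3K27me covered 62.8%, 45.4% and 67.0% of them.

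The H3K9me2 label was checked in the seedling libraries. The seedling lists covered 80.3% of the domain length in replicate 1 and 84.6% in replicate 2 (82.4% ± 3.06, SD, n = 2). In 2339 of the 2472 domains, each seedling list covered at least 50% of the domain. Since the rule asked for overlap with these lists, this is a description. Most of the domains were thus called as H3K9me2 over at least 50% of their length at both stages, a coverage the rule did not demand. The lowest coverage of a single domain was 6.01% in replicate 1 and 13.6% in replicate 2.

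H3K27me of seedlings filled most of the long domains, whereas the active marks were nearly absent from them. H3K27me covered 83.1% of the domain length, 25.8% of the flanks (the 10 kb outside each edge that lay in no long domain, 40.3 Mb in all) and 14.7% of the rest of the chromosomes (286 Mb). The SD over the 12 chromosomes was 2.12 percentage points in domains, 3.84 in flanks and 2.56 in the rest. The share in domains was 3.22 times that in flanks and 5.66 times that in the rest, and domains were above flanks on 12 of 12 chromosomes. The domains held 42.3% of all H3K27me bp.

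H3K56Ac covered 0.0214% of the domain length, 5.23% of the flanks and 6.56% of the rest. H3K4me3 covered 0.0518% of the domain length, 3.67% of the flanks and 4.88% of the rest. Both active marks were lower in domains than in flanks on all 12 chromosomes, by a factor of 244 for H3K56Ac and 70.8 for H3K4me3. The SD over chromosomes in the domains was 0.0198 percentage points for H3K56Ac and 0.0371 for H3K4me3, and in the flanks 0.871 and 0.623. These SDs describe the spread within 1 library per mark, since chromosomes are not replicates. The factors between domains and flanks depend on the settings. With gaps of up to 2 kb joined, H3K56Ac covered 0.386% and H3K4me3 0.211% of the domains, and the factors were 13.6 and 18.3. Without joining they were 315 and 84.1. With only the upper 50% of peaks of each mark by −log10 q, H3K4me3 covered 0.0162% of the domains and the factors were 196 for H3K56Ac and 141 for H3K4me3.

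The lists differ in how reads from repeats were handled. The peak names show that the seedling H3K9me2 and H3K27me lists came from reads of which multi-mapped ones were placed at 1 random site, and the H3K56Ac list from uniquely mapped reads only. The setting is not given for the tillering lists. A peak of H3K56Ac could not be called where no read maps uniquely, and the part of this in the low H3K56Ac share in domains was not tested. H3K4me3 was profiled at tillering and H3K56Ac and H3K27me in seedlings, so differences between these marks cannot be told apart from differences between stages.

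**Figure D1:**
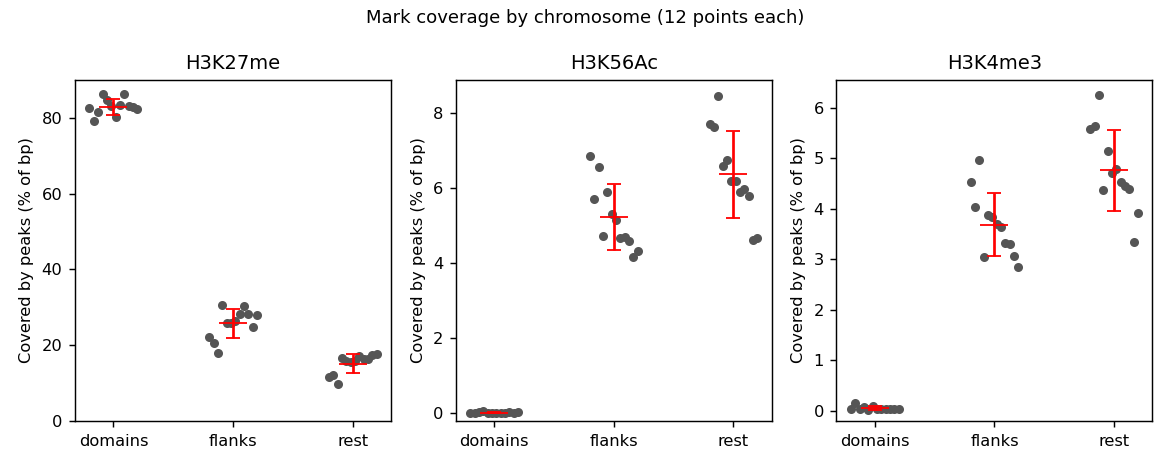
Covered share (percent of bp inside peaks, vertical axes, a separate scale for each mark) of H3K27me, H3K56Ac and H3K4me3 in the long domains, their 10 kb flanks and the rest, with 1 point per chromosome, the mean (horizontal line) and the SD over 12 chromosomes. H3K27me stands between 79.1% and 86.2% in the domains and at most at 30.7% in the flanks, while both active marks lie near 0 in the domains.

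Counted by domain, 2466 of 2472 held at least 1 bp of H3K27me (99.8%). Of 10 kb windows laid along the chromosomes, 69.7% held H3K27me, and of joined H3K9me2 domains of any length that met both seedling lists, 95.5% did. H3K56Ac was present in 27 domains (1.09%, 95% Wilson interval 0.752 to 1.58%), against 58.9% of 10 kb windows and 0.489% of joined domains of any length. H3K4me3 was present in 92 domains (3.72%, Wilson interval 3.04 to 4.54%), against 52.3% of windows and 1.96% of joined domains of any length. Either active mark occurred in 112 domains (4.53%), against 63.7% of windows, and both occurred in 7. Long domains rarely contained active marks, therefore, while most windows of their smallest size did. The intervals cover counting error only, since domains of 1 library are not replicates.

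H3K27me coverage of single domains had a median of 85.1% and an interquartile range of 74.9 to 92.04%. It reached 90% or more in 798 domains and was under 50% in 73. All 73 belonged to the 10 to 20 kb class. Their median length was 11.4 kb and their median distance to the nearest long domain 63.9 kb, against 14.9 kb and 23.9 kb for the other 2399 domains. The seedling H3K9me2 lists covered a median of 64.9% of them in replicate 1 and 84.9% in replicate 2, against 81.5% and 85.7% for the others. The domains low in H3K27me were thus also lower in seedling H3K9me2 in replicate 1, and less so in replicate 2.

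Inside the domains, H3K27me was higher where seedling H3K9me2 was called. Where both seedling lists had a peak (72.4% of the domain length), H3K27me covered 87.5%. Where 1 seedling list had a peak (20.1% of the length) it covered 75.5%, and where neither had (7.53%) it covered 61.7%. In the tillering peaks H3K27me covered 84.4%, and in the joined gaps 59.5%, so the gaps too were mostly within H3K27me. By contrast, H3K27me differed little with the strength of the tillering call: from the lowest to the highest group of 618 domains by mean −log10 q, H3K27me covered 82.6%, 83.5%, 83.1% and 83.4%.

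Taken over their whole length, longer domains were more fully covered by H3K27me. Its share was 81.2% in domains of 10 to 20 kb, 84.7% at 20 to 50 kb, 87.7% at 50 to 100 kb and 88.3% at 100 kb or more. In shorter joined domains that met both seedling lists, it was 70.3% under 1 kb (1126 domains), 71.5% at 1 to 5 kb (5636) and 75.5% at 5 to 10 kb (2432). Single domains also varied less in the longer classes. The lowest value was 0 at 10 to 20 kb, 57.0% at 20 to 50 kb, 70.4% at 50 to 100 kb and 85.1% at 100 kb or more, although the classes also hold ever fewer domains. Seedling H3K9me2 coverage was likewise higher in longer classes, at 77.4% in the shortest and 91.7% in the longest in replicate 1, and at 83.6% and 91.2% in replicate 2.

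The flanks differed with length as well. H3K27me covered 24.4% of the flanks of domains of 10 to 20 kb, 31.0% at 20 to 50 kb, 39.4% at 50 to 100 kb and 34.3% at 100 kb or more. On flank bp free of tillering H3K9me2 the shares were 16.1%, 20.2%, 28.4% and 21.5%, so the order was the same. H3K56Ac in flanks stayed between 5.15% and 6.35% over the 4 classes and H3K4me3 between 3.26% and 3.77%.

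**Figure D2:**
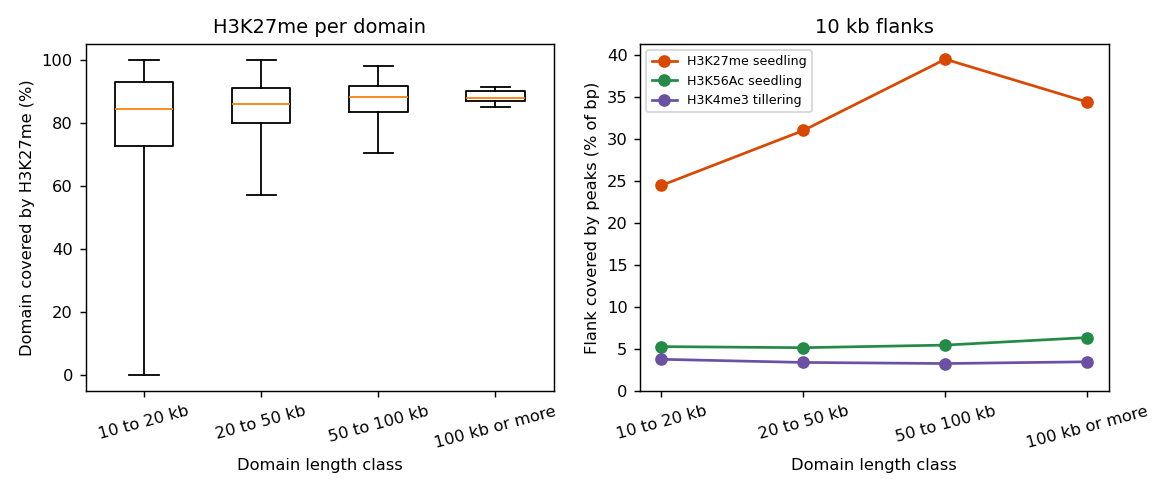
Left, the percent of each domain covered by H3K27me in 4 length classes (box, interquartile range; line, median; whiskers, lowest and highest domain), and right, the covered share of the 10 kb flanks in percent of bp for 3 marks. The lowest domain rises from 0 to 85.1% with length, and H3K27me in flanks rises from 24.4% to 39.4% and is 34.3% in the longest class.

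Among the longest domains of the 12 chromosomes, H3K27me covered between 85.1% and 97.9%. The lowest was chr7:13989646-14106069 (116 kb), with 173 bp of H3K56Ac, and the highest was chr4:15544246-15613143 (68.9 kb), with 618 bp of H3K56Ac. The value was 86.3% in chr10:3181126-3338096, 91.0% in chr6:18271145-18413632 and 87.7% in chr5:9969461-10110291, the last with 168 bp of H3K56Ac. In chr8:12538512-12630084 (91.6 kb) it was 87.3%, in chr9:14254218-14337597 (83.4 kb) 90.9% and in chr3:19030713-19107144 (76.4 kb), a single peak, 87.8%. All of these lay above 84.4%, the median of domains of 10 to 20 kb. In chr1:19604814-19679465 (74.7 kb) the share was 86.6%, in chr11:12661421-12735560 (74.1 kb) 94.9%, in chr12:11604620-11675206 (70.6 kb) 91.97% and in chr2:31849607-31893600 (44.0 kb) 95.1%. None of the 12 held H3K4me3, and 3 held H3K56Ac.

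Among domains of 50 kb or more, the least H3K27me lay in chr7:15078278-15128602 (70.4%), chr12:12625531-12676743 (73.8%) and chr7:12325211-12386498 (74.9%). The most, beside the domain on chromosome 4 above, lay in chr12:16737548-16792146 (97.4%) and chr6:65228-117940 (97.3%). The last begins 65 kb from the start of its chromosome's coordinates. Apart from the domain on chromosome 4, these domains held neither active mark.

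The 6 domains without any H3K27me were picked out after their values were seen, and they differed among themselves in seedling H3K9me2 pileup. Seedling H3K9me2 fold over control was not compared in them. In 3 of them, chr2:14264365-14283618, chr6:23576435-23591144 and chr10:10766546-10781061, the highest seedling H3K9me2 pileup (the height of overlapping reads, on the authors' scale) was 96.4, 82.5 and 65.3 in replicate 1 and 118, 110 and 116 in replicate 2. Over all members the median of the highest pileup was 12.45 and 21.8, and its 95th percentile 15.8 and 28.5. These 3 domains also held H3K4me3, over 19.4%, 13.3% and 0.999% of their length, in 13, 6 and 1 peaks. The highest H3K4me3 pileup among those peaks was 750, 759 and 538, against a median per peak of 30 over that list. For the first 2 domains this sets a maximum over several peaks beside a median of single peaks. Their fold over control was not raised alike, at 1.53 to 4.15, 1.82 to 5.15 and 2.75, against a list median of 3.72. Seedling H3K9me2 replicate 1 covered 49.1%, 22.6% and 19.6% of these domains, and replicate 2, the library called against histone H3, 100%, 95.3% and 100%. The H3K9me2 pileup of these domains thus stood far above the members' 95th percentile in both seedling replicates, while at tillering the highest was 10.7, 13.9 and 9.27. The members' median at tillering was 9 and their 95th percentile 13.2, so the domain on chromosome 6 was above that percentile there too.

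The other 3, chr2:29958298-29969432, chr3:9801068-9815495 and chr4:18851698-18861863, held neither active mark. Their highest seedling pileups were 9.84, 10.6 and 11.5 in replicate 1 and 17.1, 19.9 and 16.5 in replicate 2, below the members' medians. Replicate 1 covered 54.9%, 73.2% and 32.7% of them and replicate 2 92.8%, 93.3% and 83.2%. Both sets were more fully covered in replicate 2 than in replicate 1.

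The 5 domains with the most H3K4me3 began with chr2:14264365-14283618 (3736 bp) and chr6:23576435-23591144 (1954 bp), both without H3K27me. These 2 domains held 23.8% of all H3K4me3 bp within long domains, and without them H3K4me3 covered 0.0396% of the domain length in place of 0.0518%. The next were chr4:10594153-10609815 (702 bp), chr4:10999835-11018116 (515 bp) and chr12:21315612-21335597 (453 bp). In contrast to the first 2, these carried H3K27me over 71.5%, 93.3% and 91.7% of their length and also held H3K56Ac (477, 353 and 607 bp).

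H3K56Ac was most extensive in chr1:27391821-27413355, with 881 bp beside 353 bp of H3K4me3 and a low H3K27me share of 65.0%. It was followed by chr4:2153502-2205536 with 804 bp, chr12:7944280-7975069 with 711 bp, chr10:7048940-7125937 with 676 bp and chr5:17323221-17345607 with 623 bp. H3K27me covered 77.4%, 70.0%, 93.5% and 86.2% of these. In the richest domain, then, H3K56Ac took 4.09% of the length, less than its share in an average flank.

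The active peaks that touched long domains were few. They were 33 of 37429 H3K56Ac peaks (0.0882%) and 112 of 28228 H3K4me3 peaks (0.397%). Of the H3K56Ac peaks, 25 lay wholly inside, 8 crossed an edge and 2 lay wholly in a joined gap, and 17 were 5 kb or more from the nearest edge. Of the H3K4me3 peaks, 107 lay wholly inside, 5 crossed an edge and 4 lay in a gap, and 36 were 5 kb or more from the nearest edge. Most of these peaks thus did not cross the edges drawn here.

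The active peaks in domains differed from the rest of their lists in company and size. H3K27me overlapped 69.7% of these H3K56Ac peaks and 75% of these H3K4me3 peaks, against 2.77% and 2.83% in the full lists. H3K27me covered 83.1% of the domain length, so frequent overlap is given for any peak placed there. This contrast is thus one of location and not a trait of the peaks. Few of the active peaks in domains had the other active mark. Of the H3K4me3 peaks in domains 7.14% touched H3K56Ac, against 80.7% of all, and of the H3K56Ac peaks 30.3% touched H3K4me3, against 58.6% of all. The H3K4me3 peaks in domains were narrower (median 179.5 bp, against 489 bp) and of lower fold enrichment (2.73, against 3.72). The H3K56Ac peaks were narrower too (378 bp, against 494 bp) but of higher fold (8.64, against 4.66).

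Across the edges, the H3K27me share dropped and the active marks, nearly absent inside, appeared, although H3K27me covered more of every step outside than either active mark did. In 1 kb steps inward from the edge, H3K27me covered 75.5%, 80.3%, 82.3%, 82.7% and 83.3%. Outward it covered 35.4% in the first kb and 23.2% in the second, and 25.2 to 26.2% in each step from 2 to 10 kb. In steps of 100 bp the share was 67.2% in the step just inside the edge and 55.9% in the first outside it. H3K27me therefore extended past the tillering H3K9me2 edge, and at 3055 of 4942 edges (61.8%) an H3K27me peak crossed it. The seedling H3K9me2 lists also fell across this edge, covering 60.3% and 66.3% of the first kb inside and 12.10% and 12.05% of the first kb outside.

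H3K56Ac covered 0.0370% of the first kb inside the edge, 5.69% of the first kb outside, 7.56% of the second and 5.51% of the third. From 3 to 10 kb it stayed between 4.45% and 5.04%. H3K4me3 covered 0.0962% of the first kb inside, 2.88% of the first outside, 5.22% of the second and 3.99% of the third, and 3.16 to 3.89% from 3 to 10 kb. Both marks thus had a crest near the edge. In 100 bp steps it lay at 800 to 900 bp for H3K56Ac (10.7%) and at 1000 to 1100 bp for H3K4me3 (6.61%).

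The joining rule shapes this profile. No tillering H3K9me2 can lie within 1 kb outside an edge, whereas it covered 8.90% of the second kb and 16.05% of the third. Counted on bp free of tillering H3K9me2, the second kb still stood above the others of the first 4 kb. H3K56Ac covered 5.69%, 8.26%, 6.55% and 6.16% of them and H3K4me3 2.88%, 5.72%, 4.73% and 4.44%. This count cannot change the first kb, and edges are drawn only at gaps over 1 kb. The part of the joining rule in the crest was therefore not tested. The crest was not limited to long domains. Around joined domains of 5 to 10 kb, H3K56Ac covered 4.26%, 7.06% and 5.63% of the first 3 kb, and around those of 1 to 5 kb 3.31%, 6.03% and 5.33%. No test of the difference between lengths was possible with 1 library per mark.

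**Figure D3:**
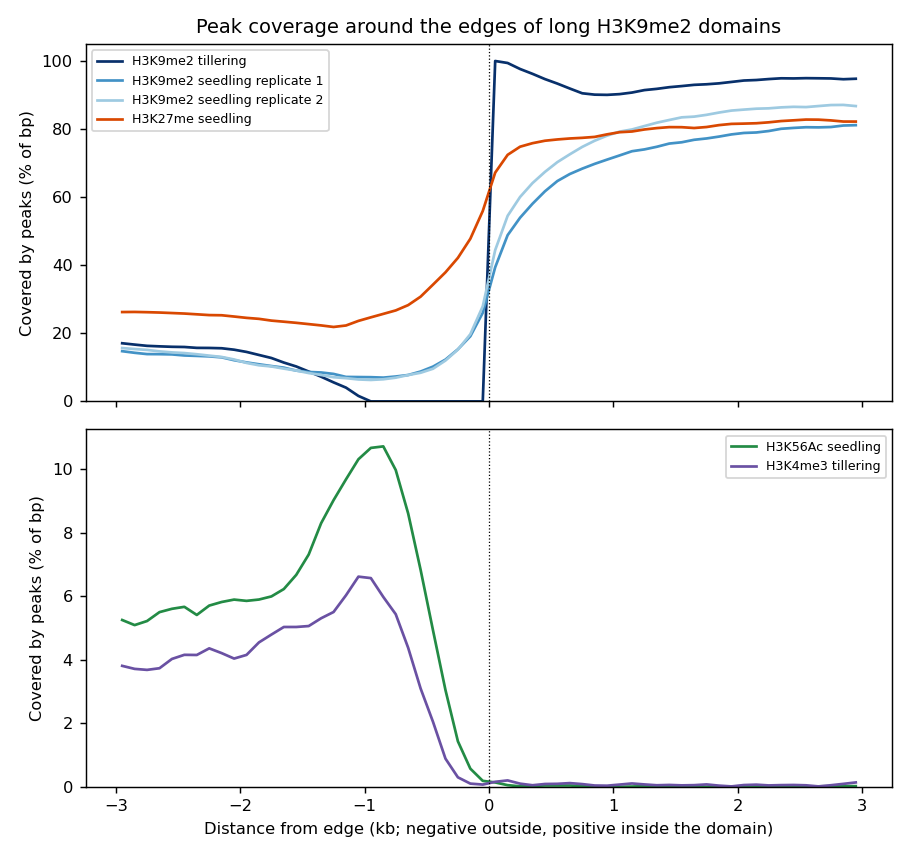
Covered share (percent of bp inside peaks) in 100 bp steps from 3 kb outside to 3 kb inside the edges of all 2472 long domains, with H3K9me2 and H3K27me above and the active marks below on their own scale. H3K27me falls from 67.2% to 55.9% across the edge and on to 21.9% at 1200 to 1300 bp outside, and is 26.3% in the outermost step. H3K56Ac and H3K4me3 crest at 10.7% and 6.61% near 1 kb outside.

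Taken over their whole 10 kb, crest included, the flanks were poorer in active marks and richer in H3K27me than the rest of the chromosomes. The flank share over that of the rest was 1.76 for H3K27me, 0.797 for H3K56Ac and 0.752 for H3K4me3, each in the same direction on 12 of 12 chromosomes. In the second kb alone, H3K56Ac (7.56%) and H3K4me3 (5.22%) were above their shares in the rest (6.56% and 4.88%). Tillering H3K9me2 itself covered 14.9% of the flanks and 9.95% of the rest. With its bp left out of both regions, H3K27me covered 16.8% of the flanks and 8.23% of the rest, H3K56Ac 6.13% and 7.28%, and H3K4me3 4.30% and 5.40%. The directions did not change.

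Per edge, an active mark was often some kb away. Within 1 kb of the 4944 edges, 13.9% had H3K56Ac, 9.81% had H3K4me3 and 14.7% had either, and within 10 kb 59.2% had either. The median distance outward to the nearest active peak was 6.71 kb, and to the next joined H3K9me2 domain of any length 6.22 kb. By domain, 952 had an active mark within 10 kb on both sides, 1022 on 1 side and 498 on neither.

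Walking outward, an active peak came before the next H3K9me2 at 2732 edges (55.3%), and H3K9me2 came first at 2206. Around joined domains of 1 to 5 kb an active peak came first at 52.9% of edges and around those of 5 to 10 kb at 56.2%, so the share in long domains was near that background. Of the long domains, 829 met an active mark first on both sides, 1074 on 1 side and 569 on neither. By length the share of edges was 57.3% at 10 to 20 kb, 50% at 20 to 50 kb, 46.6% at 50 to 100 kb and 50% (7 of 14 edges) at 100 kb or more.

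Longer domains more often had H3K56Ac directly outside the edge, but this depended on how gaps were treated. H3K56Ac lay within 1 kb of 12.8% of edges at 10 to 20 kb (Wilson interval 11.7 to 13.9%), 16.4% at 20 to 50 kb (14.4 to 18.6%) and 21.6% at 50 to 100 kb (15.05 to 29.9%). At 100 kb or more it was 6 of 14 edges (42.9%, 21.4 to 67.4%). For all 65 domains of 50 kb or more the share was 23.8% of 130 edges. Without joining gaps the share at 50 kb or more was 3 of 22 edges (13.6%, Wilson interval 4.75 to 33.3%), against 10.9% at 10 to 20 kb. With gaps of up to 2 kb joined it was 38 of 284 edges (13.4%, 9.91 to 17.8%), against 10.4% (9.43 to 11.4%). With tillering peaks of −log10 q of at least 2, just 1 domain of 50 kb or more was left, too few for a share. These settings were chosen after the pattern was seen. H3K4me3 lay within 1 kb of 9.36%, 10.7%, 13.8% and 14.3% of edges over the 4 classes, with overlapping intervals between neighbouring classes.

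**Figure D4:**
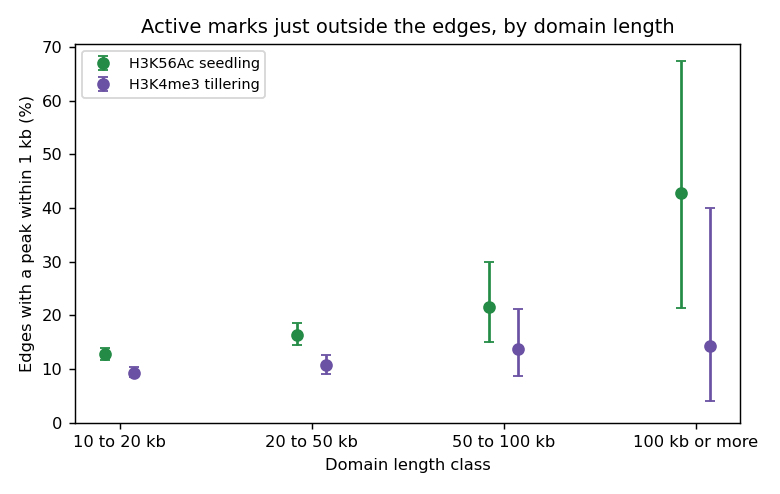
Percent of domain edges with an H3K56Ac or H3K4me3 peak within 1 kb outside, by length class, with 95% Wilson intervals for counting error. H3K56Ac runs from 12.8% at 10 to 20 kb to 42.9% at 100 kb or more, the latter from 14 edges.

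Within domains, marks were counted beside windows of 20, 50 and 100 kb, the upper limits of the classes under 100 kb. Most domains are shorter than the window of their class, and larger windows hold a mark more often. H3K56Ac was in 58.9% of 10 kb windows and 76.8% of 20 kb windows. The window shares are therefore high as a background for these classes. H3K56Ac occurred in 8 of 1806 domains of 10 to 20 kb (0.443%), 13 of 601 of 20 to 50 kb (2.16%), 4 of 58 of 50 to 100 kb (6.90%) and 2 of 7 of 100 kb or more. Of windows of 20, 50 and 100 kb, 76.8%, 93.3% and 98.3% held H3K56Ac. H3K4me3 occurred in 61, 26, 5 and 0 domains of these classes, or 3.38%, 4.32%, 8.62% and 0, where 0 of 7 allows a share of up to 35.4% (upper Wilson bound). Of windows of 20, 50 and 100 kb, 72%, 91.1% and 97.5% held H3K4me3. H3K27me occurred in every domain of 20 kb or more, against 84.1%, 96.7% and 99.7% of windows of 20, 50 and 100 kb. Either active mark occurred in 66, 37, 7 and 2 domains of the classes, against 80.9%, 95.1% and 98.9% of windows of 20, 50 and 100 kb. In covered length neither active mark changed steadily over the classes. H3K56Ac covered 0.0107%, 0.0263%, 0.0663% and 0.0370% of the domain length over the 4 classes, and H3K4me3 0.0723%, 0.0295%, 0.0317% and 0. The 10 to 20 kb class holds the 2 domains richest in H3K4me3, with 3736 and 1954 bp. At 100 kb or more, the H3K56Ac lay in 2 of 7 domains. No direction with length is read from these shares.

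The chromosomes differed in how much long domain they carried. Chromosome 4 had the most domains (299) and the largest share of its length in them (16.4%), and chromosome 2 the smallest share (8.41%) and no domain of 50 kb or more. Chromosomes 1, 2 and 3 held 5.02, 5.18 and 4.64 domains per Mb, and the other 9 held 6.61 to 8.48. The 3 chromosomes with the fewest domains per Mb thus stood apart.

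These 3 chromosomes also had the least H3K27me in flanks (22.0%, 20.6% and 18.0%, against 24.8 to 30.7% on the others) and in the rest (11.6%, 12.1% and 9.74%, against 15.6 to 17.7%). In the domains themselves, H3K27me ranged only from 79.1% on chromosome 2 to 86.2% on chromosomes 4 and 9. H3K56Ac in flanks was highest on chromosome 1 (6.86%) and lowest on chromosome 11 (4.16%), and H3K4me3 was highest on chromosome 3 (4.97%) and lowest on chromosome 12 (2.86%). Each pair stood in the same order in the rest, so the order was not particular to the flanks. There H3K56Ac covered 7.71% on chromosome 1 and 4.60% on chromosome 11. H3K4me3 covered 6.24% of the rest on chromosome 3 and 3.91% on chromosome 12. Inside domains, H3K56Ac was found in none of the 186 domains of chromosome 2 and none of the 201 of chromosome 11, and in 8 of the 299 of chromosome 4. Its share over all domains was 1.09%. H3K4me3 was found in 4 of the 216 domains of chromosome 5, 11 of the 216 of chromosome 6 and 16 of the 299 of chromosome 4. Its share over all domains was 3.72%.

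The spacing of long domains is given without a background of other placements, so it is only a description. The median distance to the nearest other long domain was 24.6 kb, 812 domains (32.8%) had one within 10 kb, and 1978 (80.0%) within 100 kb. The most isolated was 1009 kb away. Of 367 windows of 1 Mb, 39 (10.6%) had over 30% of their length in long domains, and these held 35.2% of all long-domain bp. The densest window was chr4:10000001-11000000, with 67.0% in long domains, H3K27me over 77.1%, H3K56Ac over 0.938% and H3K4me3 over 0.707%. Windows next in density were on chromosome 3 (60.5%, chr3:19000001-20000000) and chromosome 11 (59.0%, chr11:12000001-13000000).

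H3K27me outside a domain rose with the density of long domains around it, and H3K27me inside varied little. Domains were ordered by the share of the surrounding 1 Mb on each side in other long domains and cut into 4 groups of 618. From the sparsest to the densest group, H3K27me covered 14.7%, 25.1%, 30.7% and 37.1% of the flanks, and 9.54%, 16.4%, 20.9% and 25.1% of flank bp free of tillering H3K9me2. Inside the domains it covered 81.3%, 82.9%, 83.3% and 84.5%.

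The active marks in flanks were highest in the sparsest group. H3K56Ac covered 6.64%, 4.92%, 4.32% and 4.72%, and H3K4me3 4.56%, 3.62%, 2.99% and 3.31%. Neither mark fell steadily with density. On flank bp free of tillering H3K9me2, H3K56Ac covered 7.23%, 5.72%, 5.23% and 6.09%, and H3K4me3 4.96%, 4.20%, 3.62% and 4.26%. There the densest group stood above both middle groups. An active peak came before the next H3K9me2 at 71.0% of edges in the sparsest group, then 54.5%, 51.1% and 44.4%. The groups and the next H3K9me2 both come from the tillering list, so this order is not independent of the grouping and is only a description. The median length was 13.1 kb in the sparsest and 17.6 kb in the densest group, and domains of 50 kb or more numbered 2, 11, 21 and 31, so length and neighbourhood moved together and their parts were not separated.

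**Figure D5:**
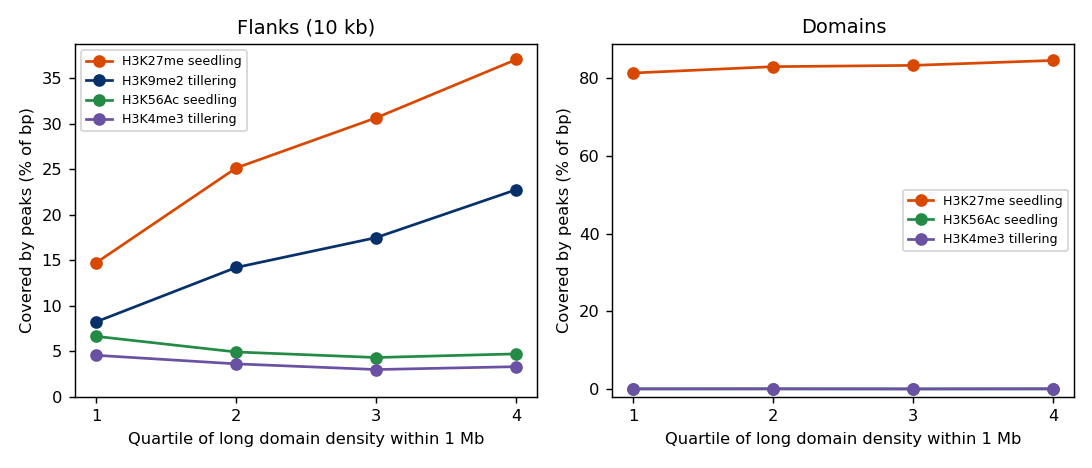
Covered share (percent of bp) in flanks, left, and in domains, right, for 4 groups of 618 long domains ordered from 1 (sparsest) to 4 (densest) by the share of long domains within 1 Mb. H3K27me in flanks rises from 14.7% to 37.1%, while in domains it runs from 81.3% to 84.5%.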

How the data were processed

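MACS2, Bowtie and bedtools are the tools named in the submitters' processing notes, from which the authors made a peak list for each library. Versions and thresholds are not given in the sources used here. The 6 deposited O. sativa lists give for each peak a pileup signal and the authors' −log10 p, fold ratio over control and −log10 q (the H3K27me list gives no pileup). The lowest −log10 q was 0.504 in the tillering H3K9me2 list and above 1 in the others. H3K9me2 and H3K27me lists hold broad peaks. H3K56Ac has 63555 lines over 37429 intervals, which were merged.

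Covered share is the percent of bp in a region inside peaks, computed with Python 3.11.15 and numpy 2.4.6 (scipy 1.17.1 for Wilson intervals, matplotlib 3.10.9 for figures). Overlap calculations were tested on simulated lists. Chromosome length (372 Mb in all) is the last peak end over the lists. Flanks exclude every long domain, and the rest is what remains. With 1 library per mark no test was run, and chromosomes, domains and edges are not replicates. Seedling H3K9me2 replicates share only a label, and nothing says that they came from separate plants.

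Domains named are the longest of each chromosome, the 5 richest in each active mark, the 3 lowest and 3 highest in H3K27me of those of 50 kb or more, and the 3 on each side of the length limit. Members and lists were chosen with earlier results of these data known. Multi-mapped reads went to 1 random site in the seedling H3K9me2 and H3K27me lists and were dropped in the H3K56Ac list, per the peak names in the file contents. Alternatives changed the gap, length, flank, q-value and seedling overlap. Genes and sequence of tigr6 were not used here.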

Additional observations from a re-analysis of the deposited data

How the results depend on the processing

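In all 15 settings H3K27me was higher, and H3K56Ac and H3K4me3 lower, in domains than in flanks. The number of domains was 4904 from 5 kb, 666 from 20 kb and 147 with tillering peaks of −log10 q of at least 2. H3K27me covered 85.6% of domains and 35.4% of flanks without joining or with gaps up to 500 bp joined (the smallest gap in the list is 586 bp, so these are the same domains). It covered 79.8% and 20.4% with gaps up to 2 kb, 81.1% and 20.2% from 5 kb, 85.3% and 36.8% from 20 kb, 86.3% and 39.4% at −log10 q of at least 2, and 73.4% and 18.8% with the upper 50% of peaks by −log10 q in the lists of the 3 other marks. In flanks alone it was 28.2% at −log10 q of at least 1, 24.0% with 20 kb flanks and 16.8% off tillering H3K9me2. H3K56Ac covered 0.386% of domains with gaps up to 2 kb and 0.0336% from 20 kb, and 4.02% of flanks with the upper 50% of peaks. H3K4me3 covered 0.211% of domains with gaps up to 2 kb, 0.0286% from 20 kb and 0.0162% with the upper 50% of peaks. It covered 2.99% of flanks at −log10 q of at least 2 and 2.28% with the upper 50% of peaks. Leaving out either seedling replicate gave 2472 domains both times and the same shares. The cause of these shifts was not tested. No paired analysis was possible because the result comes from no test and 1 group alone has replicates.

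Each mark other than seedling H3K9me2 rests on 1 library, stages differ between marks, and depth is unknown. A low share means few called peaks at that unknown depth.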
